A study of Mus musculus with 12 samples.

Results

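Glutathione S-transferase mRNA was abundant in liver tumors of E2F7/8 DKO mice, in livers of DKO mice and in wild-type liver. None of the 10 transferase genes examined passed the test between any of these groups. Of all 11351 genes tested, 1.9% passed in tumors against wild-type livers. In tumors against DKO livers 0.00881% passed, and in DKO livers against wild-type livers 0%. The closest of the 10 was Gstm3, a mu-class subunit. It averaged 308 RPKM in DKO tumors against 59.5 RPKM in wild-type livers (limma, adjusted p = 0.151). For Gstm3 all 4 tumors were above all 4 wild-type livers, and 11.9% of all genes likewise did not overlap, in either direction. The genes varied widely among libraries of a group. Codes were read as pairing each tumor with a DKO liver of the same animal. In 1 of the 4 pairs all 10 genes were higher in the tumor than in the liver, and in another 1 of 10 was. These genes are Gsta2, Gsta3 and Gsta4 of the alpha class, Gstm1, Gstm2, Gstm3, Gstm4 and Gstm6 of the mu class, Gstt1 of the theta class and Gstp1 of the pi class. They were taken by symbol, with the longest transcript row of each, and are 10 of the 19012 gene symbols in the deposited tables.

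Glutathione S-transferases are cytosolic dimers that join the tripeptide glutathione to electrophiles such as epoxides, lipid peroxidation products and drug metabolites, after which the conjugate is pumped out of the cell and trimmed to a mercapturate. The liver is their main site, where they follow the cytochrome P450 enzymes as the conjugating step of detoxification. Many of the genes are known targets of NRF2, a stress-response factor that binds antioxidant response elements, and of the xenobiotic receptors CAR and PXR. The mu-class genes lie beside each other in the genome, and members of a class can be very alike in sequence. In the rat, the pi-class enzyme is a classical marker of preneoplastic liver foci.

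The study measured poly(A) RNA by SOLiD sequencing in 3 groups of 4 mouse libraries: liver tumors of E2F7/8 DKO mice, livers of E2F7/8 DKO mice, and wild-type livers. DKO stands for double knockout, here of E2f7 and E2f8, which encode atypical E2F proteins that repress cell-cycle genes. Tumors and DKO livers share the genotype and differ in tissue, and DKO and wild-type livers share the tissue and differ in genotype. The labels give no allele, Cre driver, agent, age or sex. Each tumor shares a code in the name of its deposited table with the DKO liver of the same number. The wild-type livers carry other codes. The labels do not explain the codes. They were read as animals, so the DKO livers are taken to come from tumor-bearing animals. Animal is used below in that sense.

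RPKM scales a gene's reads by its exon length and by the library's depth, so levels can be compared between genes. Depth ran from 7.985 M to 15.956 M reads a library (M, mega), so even Gsta2, the lowest member, rested on 9 to 230 reads, and Gsta3 on 7755 to 35411. The names of the tables also carry a tag, L02 or L03, whose meaning is not given: all DKO livers are L02, all tumors L03, and the wild-type livers 2 of each. E2f7 averaged 0.179 ± 0.101 RPKM in tumors, 0.281 ± 0.084 RPKM in DKO livers and 0.138 ± 0.043 RPKM in wild-type livers (SD, n = 4 each), and E2f8 averaged 5.70 ± 4.60 RPKM in tumors, 9.75 ± 7.70 RPKM in DKO livers and 2.70 ± 1.13 RPKM in wild-type livers. Neither was lower on average in a DKO group than in wild-type livers (tumors against wild-type livers, exact permutation test over 70 splits, two-sided, p = 0.543 for E2f7 and 0.286 for E2f8; DKO livers against wild-type livers, p = 0.0286, the smallest the design allows, and 0.0571). These RPKM cover all exons of each gene and so do not check the deletion. Reads of albumin took 11.8% to 22.3% of a tumor library, 4.23% to 20.1% of a DKO liver library and 6.76% to 11.0% of a wild-type library, and albumin is the defining product of hepatocytes.

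The promoters of the genes on which the comparisons turn are shown for what the annotation places there. The following are the 250 bases before an annotated start of Gsta3, the most abundant member, and of 3 mu-class genes. They are from RefSeq on GRCm38.p6, each 5′ to 3′ on its gene's strand. Capitals mark a match to TGACNNNGC, the antioxidant response element core, in Gsta3 and to TATAAA, the TATA box core, in Gstm1. The Gsta3 window is chr1:21240335-21240584 (+), that of Gstm1 chr3:108017819-108018068 (-), that of Gstm2 chr3:107986421-107986670 (-) and that of Gstm3 chr3:107969175-107969424 (-). Gstm1 has another annotated start, with its window at chr3:108017974-108018223 (-), which is not printed and holds no TATAAA.
Gsta3: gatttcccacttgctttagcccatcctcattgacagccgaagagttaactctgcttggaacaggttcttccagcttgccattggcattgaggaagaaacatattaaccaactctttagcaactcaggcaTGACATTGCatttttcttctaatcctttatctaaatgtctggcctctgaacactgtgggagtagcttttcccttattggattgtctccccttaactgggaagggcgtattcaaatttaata
Gstm1: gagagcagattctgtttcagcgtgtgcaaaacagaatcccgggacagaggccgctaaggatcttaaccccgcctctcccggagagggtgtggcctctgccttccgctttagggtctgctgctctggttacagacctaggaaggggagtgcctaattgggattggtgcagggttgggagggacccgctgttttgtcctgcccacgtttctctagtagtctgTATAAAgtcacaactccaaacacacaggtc
Gstm2: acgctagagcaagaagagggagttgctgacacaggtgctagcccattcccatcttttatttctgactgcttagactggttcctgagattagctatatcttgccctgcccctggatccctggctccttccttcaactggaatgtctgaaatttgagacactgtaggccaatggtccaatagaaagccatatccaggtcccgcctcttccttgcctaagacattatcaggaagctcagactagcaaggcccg
Gstm3: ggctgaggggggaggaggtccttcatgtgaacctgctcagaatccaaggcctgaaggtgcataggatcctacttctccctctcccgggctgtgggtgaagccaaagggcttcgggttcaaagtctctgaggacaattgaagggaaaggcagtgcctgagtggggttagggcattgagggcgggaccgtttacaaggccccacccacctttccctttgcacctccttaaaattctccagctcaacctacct

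The promoter table held 13 windows for 9 of the 10 members, each of 300 bases from 250 before to 50 after a start, and Gsta4 had none. TGACNNNGC was searched on both strands and lay in 12.4% of all 32851 promoters and in 1 member, Gsta3, as TGACATTGC at position -121 from the start. TATAAA lay in 13.6% of promoters and in 2 members. It was at position -30 from the Gstm1 start printed above and, on the opposite strand, at -246 from the start of Gsta2. TTTCCCGC and TTTGGCGC, the forms of the E2F site searched, lay in 1.07% and 0.514% of promoters and in 0 of the 13 windows. A match is a description of letters and not of binding.

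The mu-class genes lie together on chromosome 3, in mm9 coordinates as the files give them at chr3:107741765-107746666 (Gstm6), chr3:107766613-107772075 (Gstm3), chr3:107784619-107789353 (Gstm2), chr3:107815174-107820890 (Gstm1) and chr3:107843325-107847699 (Gstm4), all on the minus strand. Gsta4 and Gsta2 lie on chromosome 9, at chr9:78039772-78057155 and chr9:78178826-78194951, Gsta3 on chromosome 1 at chr1:21230669-21255639, Gstt1 on chromosome 10 at chr10:75246557-75261328 and Gstp1 on chromosome 19 at chr19:4035410-4037911. Each span is that of the whole transcript, introns included, and whether the files count positions from 0 or 1 is not stated.

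How far a read can tell these genes apart was measured on the GENCODE M21 transcripts. Of the windows of 35 bases in the Gsta2 transcript, 73.3% also occur in a transcript of another gene, mostly Gsta1 and predicted genes beside it. For Gstp1 the share was 66.3%, mostly in Gstp2 and a pseudogene, for Gstm3 it was 35.8% and for Gstm1 31.6%. Gstm2 had 16.4%, Gstm6 16.3% and Gstm4 2.03%, and Gsta3, Gstt1 and Gsta4 had under 1%, at 0.58%, 0.10% and 0%. With windows of 50 bases the shares were 64.2% for Gsta2, 62.3% for Gstp1, 28.8% for Gstm3 and 23.1% for Gstm1. Read length, and what was done with reads that match several places, are not given in the sources used here. The values of Gsta2, Gstp1, Gstm3 and Gstm1 are therefore uncertain by reads that could be split with these partners.

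**Figure D1:**
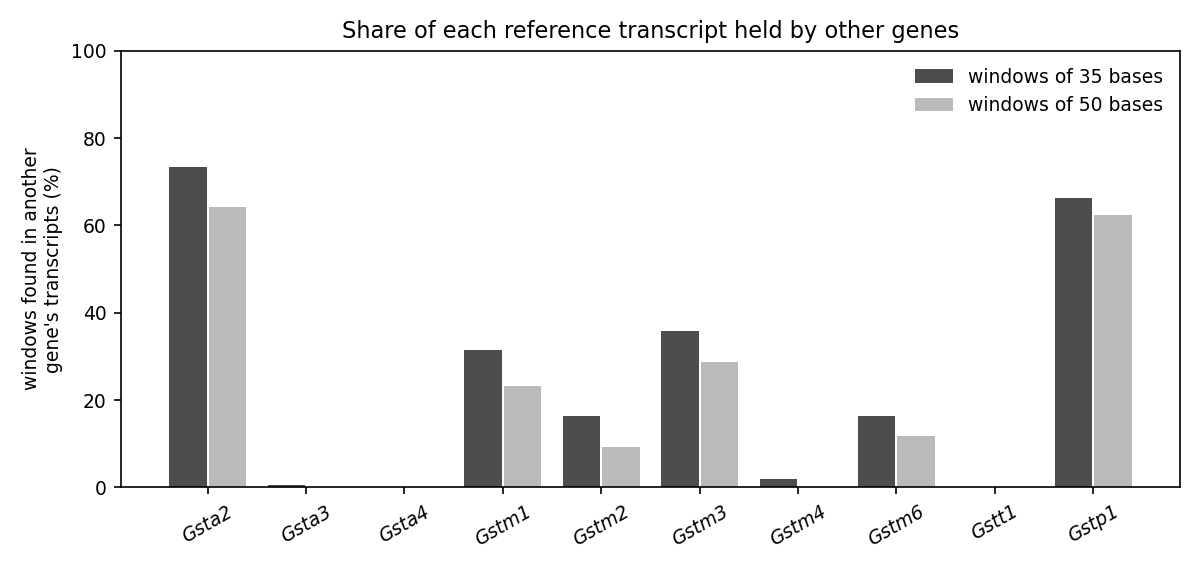
Share of the 35-base (dark) and 50-base (light) windows of each member's GENCODE M21 transcript that also occur in transcripts of other genes, in percent. Gsta2 and Gstp1 share over 60% of windows at either length, Gstm3 and Gstm1 23.1% to 35.8%, and Gsta3, Gsta4 and Gstt1 almost none.

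The coding sequences show where such reads could and could not be told apart. Gstm3 and Gstm1 have coding sequences of 657 bases that differ at 69 positions (89.5% identical), with a longest identical stretch of 112 bases. Their last 60 bases before the stop codon, coding bases 595 to 654 counted from the A of the start codon, hold 16 of the differences and are printed here from GRCm38, where they lie at chr3:107964210-107964269 (-) for Gstm3 and chr3:108012692-108012751 (-) for Gstm1. Capitals mark the differing bases.
Gstm3: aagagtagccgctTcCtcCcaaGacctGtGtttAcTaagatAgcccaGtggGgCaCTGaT
Gstm1: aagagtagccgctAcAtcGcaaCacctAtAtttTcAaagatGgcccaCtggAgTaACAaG

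Gstp1 and Gstp2, by contrast, differ at only 12 of 633 coding positions (98.1% identical), and their last 303 coding bases are identical. Their first 60 coding bases, which hold the most differences of any such stretch, differ at 6 positions, in capitals here.
Gstp1: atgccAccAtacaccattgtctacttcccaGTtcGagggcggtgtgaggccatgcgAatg
Gstp2: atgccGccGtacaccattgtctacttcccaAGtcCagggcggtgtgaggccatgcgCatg
Gsta2 and Gsta1 share their first 196 coding bases, of which the first 60 lie at chr9:78341857-78341916 (-) in Gsta2 and read as follows.
Gsta2: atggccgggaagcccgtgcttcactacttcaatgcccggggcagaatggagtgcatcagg

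Among the alpha class, Gsta3 was the most abundant member in each group, and its values did not separate the groups. Gsta3, which in the mouse conjugates the epoxide of aflatoxin B1, had 532, 1447, 983 and 1625 RPKM in tumors 1 to 4, 1242, 1453, 1013 and 577 RPKM in DKO livers 1 to 4 and 1473, 972, 1072 and 1240 RPKM in wild-type livers 1 to 4. Tumor 1 and DKO liver 4 were the low libraries, and the 4 wild-type livers spanned the narrowest range. The log2 change was -0.16 in tumors against wild-type livers (95% confidence interval -0.94 to 0.63) and 0.06 in tumors against DKO livers (-0.73 to 0.84).

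Gsta4, which prefers the lipid peroxidation product 4-hydroxynonenal, had 56.5, 56.0, 74.3 and 75.3 RPKM in tumors, 70.8, 67.1, 85.0 and 25.1 RPKM in DKO livers and 87.2, 65.3, 42.4 and 77.1 RPKM in wild-type livers. The groups overlapped, and DKO liver 4 was the lowest of the 12. Gsta2, an inducible alpha subunit, was the lowest member, with 1.32, 3.31, 18.8 and 10.8 RPKM in tumors, 3.29, 14.7, 17.0 and 1.13 RPKM in DKO livers and 13.8, 8.67, 3.74 and 17.2 RPKM in wild-type livers. It was also the most uneven: the highest library exceeded the lowest by 14.3 times among tumors, 15.0 times among DKO livers and 4.59 times among wild-type livers.

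**Figure D2:**
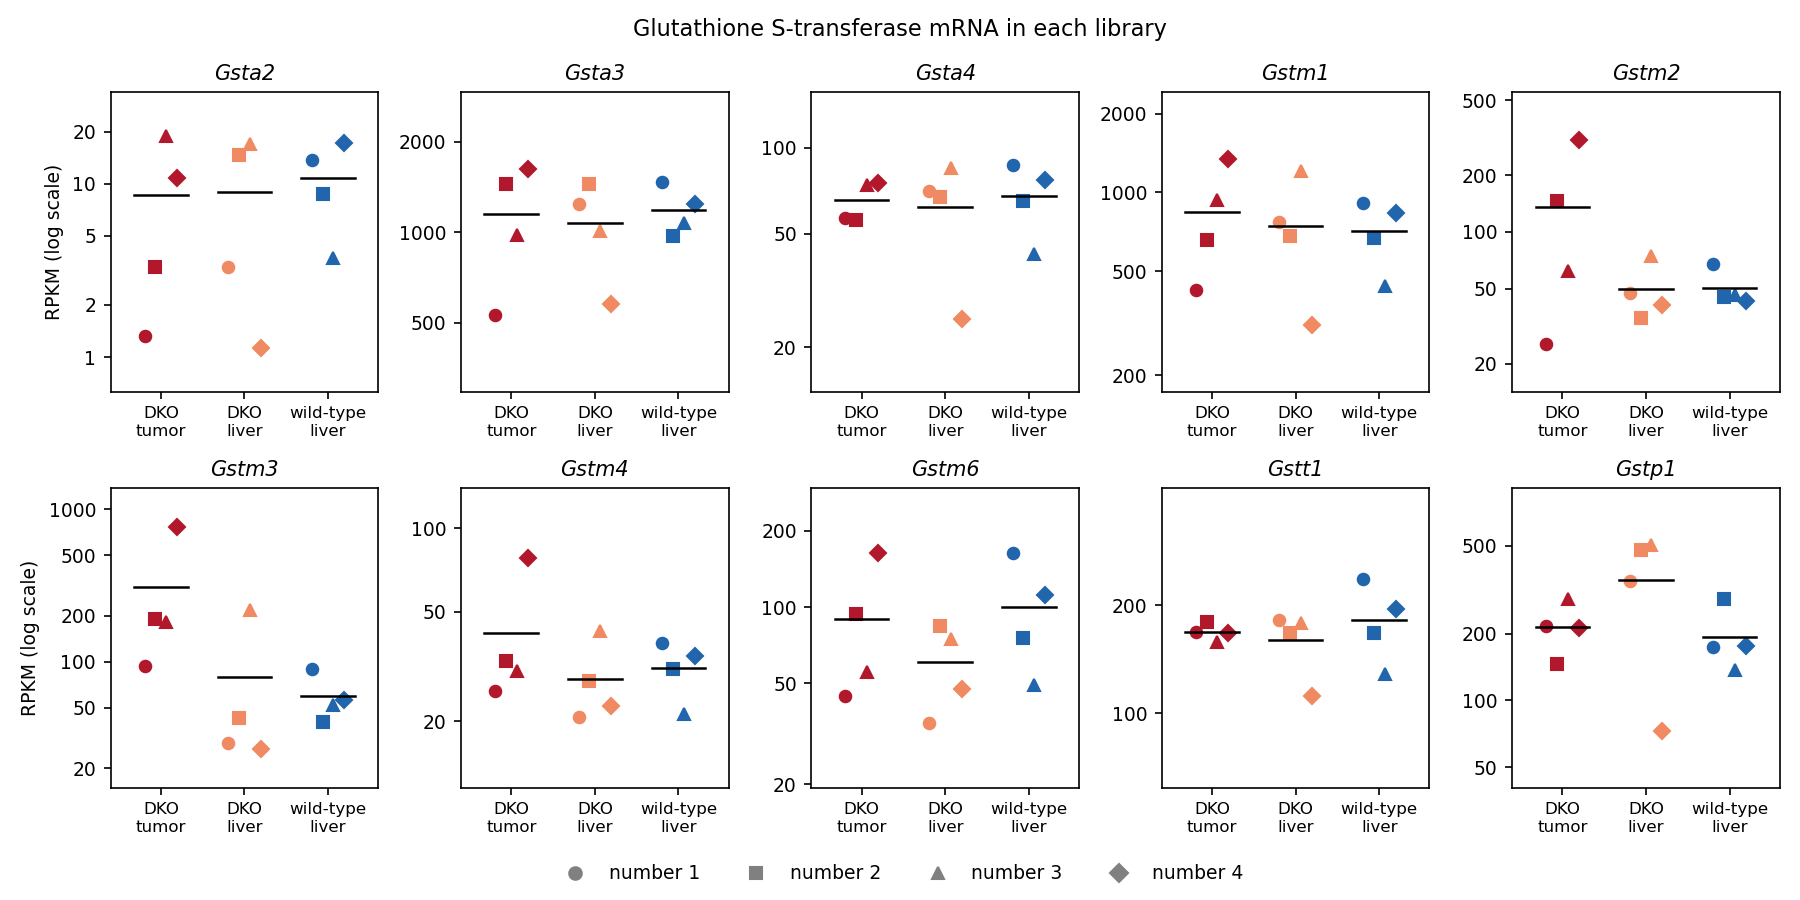
RPKM (log scale) of the 10 transferases in the 4 DKO tumors (red), 4 DKO livers (orange) and 4 wild-type livers (blue), 1 point per library with its shape for the library's number, and the group mean as a bar. Only for Gstm3 do all tumors lie above all wild-type livers (93.4 RPKM and up against at most 90.0 RPKM), and DKO liver 4 (orange diamond) is the lowest of its group for 7 of 10 genes.

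Gstm1, the main mu-class subunit of mouse liver, was second to Gsta3 in each group. It had 425, 657, 934 and 1345 RPKM in tumors, 773, 682, 1205 and 311 RPKM in DKO livers and 911, 667, 437 and 836 RPKM in wild-type livers. Tumor 4 was the highest and DKO liver 4 the lowest of the 12 libraries, and the groups overlapped widely. Together, Gsta3 and Gstm1 made up 60.3% to 75.9% of the summed RPKM of the 10 genes in every library.

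The remaining mu-class genes were lower on average. Gstm3 had 93.4, 189, 183 and 766 RPKM in tumors, 29.5, 42.4, 218 and 26.8 RPKM in DKO livers and 90.0, 40.0, 52.2 and 55.9 RPKM in wild-type livers. The lowest tumor was just above the highest wild-type liver, tumor 4 stood far above the other tumors, and DKO liver 3 was inside the range of the tumors. Gstm2 had 25.6, 146, 62.0 and 307 RPKM in tumors, 47.7, 35.03, 74.5 and 41.0 RPKM in DKO livers and 67.3, 45.1, 46.3 and 43.2 RPKM in wild-type livers. Tumors 2 and 4 exceeded every liver, and tumor 1 was the lowest of the 12 libraries.

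Gstm4 had 25.7, 33.2, 30.5 and 77.9 RPKM in tumors, 20.7, 28.1, 42.4 and 22.7 RPKM in DKO livers and 38.3, 31.1, 21.2 and 34.6 RPKM in wild-type livers. Only tumor 4 lay outside the range of the livers. Gstm6 had 44.4, 94.1, 55.6 and 164 RPKM in tumors, 34.9, 84.6, 75.1 and 47.4 RPKM in DKO livers and 163, 75.5, 49.1 and 112 RPKM in wild-type livers. Its highest values were in tumor 4 and wild-type liver 1, and its log2 change in DKO livers against wild-type livers, -0.66 (-1.63 to 0.31), did not pass the test.

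Gstt1, a theta-class enzyme that acts on small halogenated compounds, was the steadiest member in tumors, with 168, 180, 158 and 167 RPKM, against 182, 168, 179 and 111 RPKM in DKO livers and 236, 168, 128 and 195 RPKM in wild-type livers. All 4 tumors were inside the range of the livers. Gstp1, of the pi class, had 216, 146, 286 and 212 RPKM in tumors, 348, 476, 506 and 72.6 RPKM in DKO livers and 175, 288, 137 and 176 RPKM in wild-type livers. DKO livers 1 to 3 exceeded every other library, and DKO liver 4 was the lowest of all 12. Left out, that library moved the log2 change of Gstp1 in tumors against DKO livers to -1.06, from a value of -0.42 over all libraries, and the adjusted p (limma) to 0.0989, from 0.729.

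Summed by class, the 5 mu genes gave 1415 ± 875 RPKM in tumors, 961 ± 484 RPKM in DKO livers and 954 ± 286 RPKM in wild-type livers (SD, n = 4 each). The 3 alpha genes gave 1221 ± 497, 1142 ± 398 and 1268 ± 238 RPKM in tumors, DKO livers and wild-type livers. All 10 together gave 3019 ± 1304 RPKM in tumors, 2613 ± 958 RPKM in DKO livers and 2598 ± 546 RPKM in wild-type livers. For the alpha genes and for all 10 the means were closer than the SD of any group. For the mu genes the tumor mean exceeded the wild-type mean by more than the SD of the wild-type livers and by less than that of the tumors.

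The order of mean levels began with Gsta3 and Gstm1 and ended with Gstm4 and Gsta2 in all 3 groups, and differed between them in the middle. In wild-type livers the order was Gsta3, Gstm1, Gstp1, Gstt1, Gstm6, Gsta4, Gstm3, Gstm2, Gstm4 and Gsta2. Of its 9 neighbouring pairs there, 4 did not overlap in range: Gsta3 with Gstm1, Gstm1 with Gstp1, Gstm2 with Gstm4, and Gstm4 with Gsta2. In tumors Gstm3 stood in place 3 and Gstp1 in place 4, and in DKO livers Gstp1 stood in place 3 and Gstm3 in place 5. In both DKO groups only Gstm4 and Gsta2 were neighbours with separate ranges.

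Tumor against wild-type liver asks how the family's mRNA stands in tumor tissue without E2F7 and E2F8. With limma across 11351 genes, all 10 members among them, 216 genes or 1.9% were called at an adjusted p under 0.05, and 0 of 10 members were. At an unadjusted p under 0.05 there was 1 member, Gstm3, against 2176 genes or 19.2% of all. A test of the recovered read counts by voom also called 0 members and 196 genes in all. The median log2 change of the members was 0.07, with 5 of 10 above 0, and that of all genes was -0.02.

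Gstm3 was higher in tumors than in wild-type livers by 1.95 on the log2 scale of RPKM + 1 (interval 0.45 to 3.46), which is 3.87 times with an interval of 1.36 to 11.0 times, and did not pass the test (limma, adjusted p = 0.151). It was the 1 member of 10 whose groups did not overlap, where 11.9% of all genes did not. Without tumor 4 its log2 change was 1.36 (adjusted p = 0.265), and over all settings tried its adjusted p ran from 0.0662 to 0.479. Within tag L03, which holds the 4 tumors and wild-type livers 3 and 4, the log2 change was 2.03 (adjusted p = 0.466), and 25 genes but 0 members were called. Gstm2 followed with 0.88 (-0.38 to 2.15, adjusted p = 0.443), which was 0.31 without tumor 4 and 1.49 without tumor 1.

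The other 8 members had log2 changes of -0.60 to 0.30 in tumors against wild-type livers. For 4 members the interval lay within a 2-fold change either way: Gsta3, Gsta4, Gstm4 and Gstt1. The rest could have differed by more without being detected with 4 libraries a group, since the median standard error was 0.44 for members and 0.20 for all genes.

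**Figure D3:**
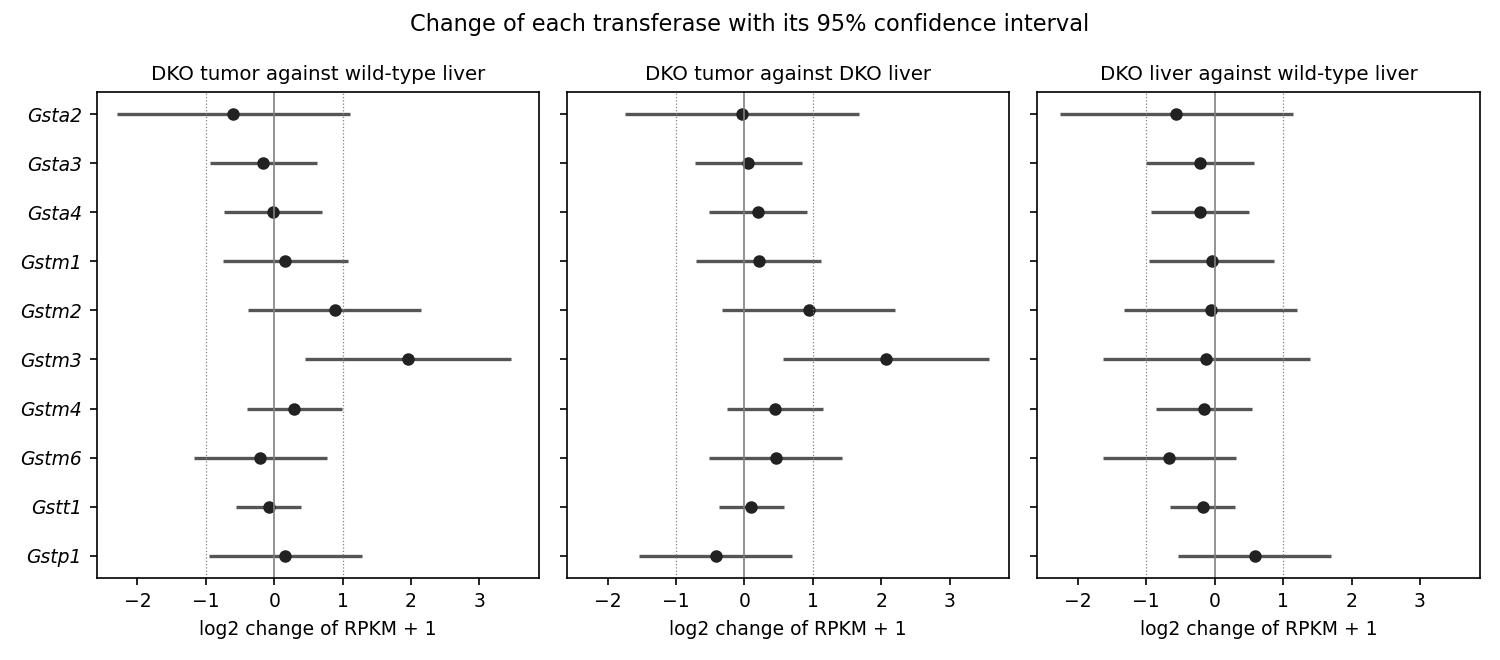
Log2 change of RPKM + 1 (point) with its 95% confidence interval (line) for each member in the 3 comparisons, from limma over 12 libraries; dotted lines mark a 2-fold change. Only Gstm3 has intervals clear of 0, at 0.45 to 3.46 in tumors against wild-type livers and 0.57 to 3.58 in tumors against DKO livers, and no member passed the adjusted test.

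Tumor against DKO liver compares tissues read as those of the same animals. Kif5c, a kinesin chosen for naming after its value was seen, was the 1 gene called (0.00881% of 11351), and 0 members were called. At an unadjusted p under 0.05 there was 1 member against 1822 genes, 16.1% of all. With the animal as a block, 71 genes and 0 members were called. The median log2 change was 0.20 for members, with 8 of 10 above 0, and -0.09 for all genes. Another scaling moved the median of all genes by 0.11 and that of the members to 0.34. No member had groups that did not overlap, where 6.2% of all genes did. Since all tumors carry tag L03 and all DKO livers tag L02, tag and tissue cannot be told apart here.

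Gstm3 had the largest log2 change of the members here, 2.07 (interval 0.57 to 3.58; limma, adjusted p = 0.185, and 0.224 with the animal as a block). It was higher in the tumor in 3 of 4 animals, by 1.63, 2.13 and 4.78 on the log2 scale in animals 1, 2 and 4, and lower by a log2 change of -0.25 in animal 3. Without animal 4 the change was 1.17 (adjusted p = 0.311), without tumor 4 alone 1.48 and without DKO liver 3 2.75 (adjusted p = 0.0730). Gstm2 was higher in the tumor in animals 2 and 4, by 2.03 and 2.88, and lower in animals 1 and 3, at -0.87 and -0.26.

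Deviations from the group means of the tumor and liver paired as animal 4 by code and number correlated at 0.003. The same liver correlated at 0.15 with tumor 1, so this pair rests on the code. Animal 4 differed from the others across the family. All 10 members were higher in its tumor than in its liver, with a median log2 difference of 1.75, whereas 3, 5 and 1 of 10 were higher in the tumor of animals 1, 2 and 3, with medians of -0.50, 0.05 and -0.26. These differences were not counted over all genes, so whether they are particular to the family was not tested. Tumor 4 was the highest of the 12 libraries for 6 members, and DKO liver 4 the lowest for 6. Gstp1 was lower in the tumor in animals 1 to 3, at -0.68, -1.70 and -0.82, and higher in animal 4, at 1.53. Leaving out animal 4 turned the tumor-against-liver log2 changes of Gsta3, Gsta4, Gstm1 and Gstt1 to -0.42, -0.26, -0.43 and -0.06, from 0.06, 0.20, 0.21 and 0.10 over all 4 animals.

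**Figure D4:**
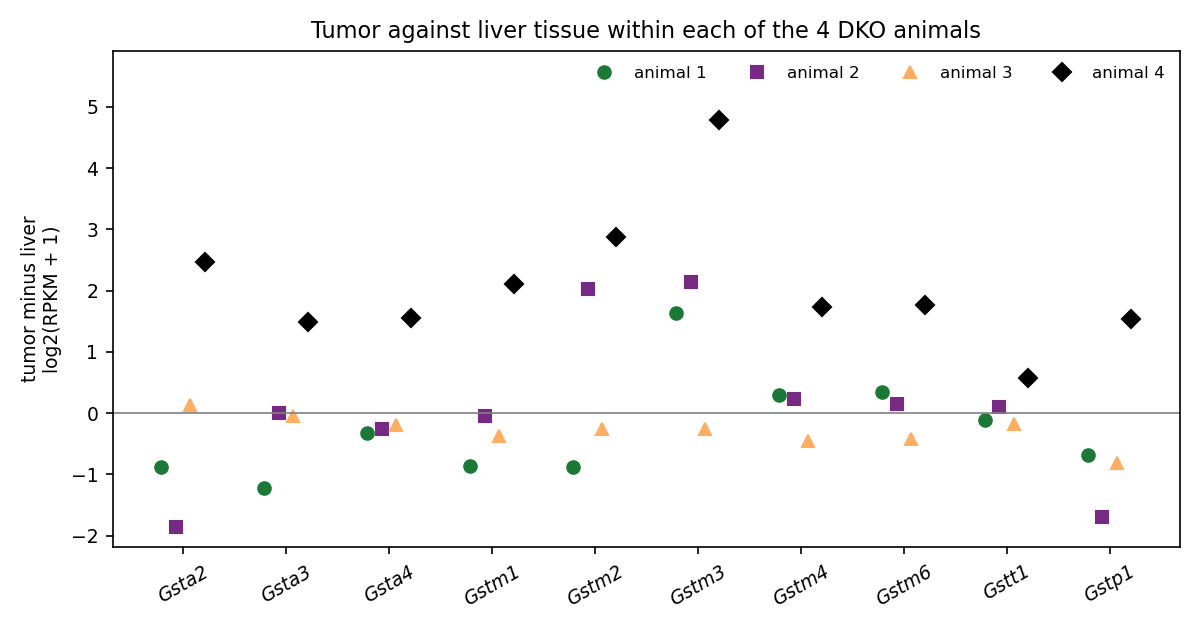
Difference in log2(RPKM + 1) between tumor and liver of the same DKO animal for each member, 1 point per animal. Animal 4 (black diamonds) is above 0 for all 10 genes and highest at Gstm3 (4.78), whereas animals 1 to 3 lie on both sides of 0.

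DKO liver 4 also had the lowest depth of its group, 9.274 M reads, and an albumin share of 20.1%, against 4.23% to 10.5% in DKO livers 1 to 3. The other 9 hepatocyte markers summed to 39032.5 RPKM there and to 35791.5 to 44400.5 RPKM in DKO livers 1 to 3. Among them Ttr, transthyretin, had 1463 RPKM against 3515 to 3653 RPKM, and Apoa1 7770 RPKM against 8978 to 10876 RPKM. Apob, Ahsg, Fgb, Hnf4a, Trf, Cps1 and Serpina1c lay inside the range of DKO livers 1 to 3. After median-of-ratios scaling DKO liver 4 was still the lowest of its group for 6 of 10 members, against 7 before. Tumor 1 had the highest albumin share, 22.3%. It was the lowest tumor for 7 members and the highest for 0 before scaling, and the lowest for 5 and the highest for 3 after. The part of these differences in the members' values was not tested. Since these are bulk samples, fewer cells of a type and less RNA per cell cannot be told apart.

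DKO liver against wild-type liver compares the family between genotypes outside tumors. The DKO livers are read as those of tumor-bearing animals, so genotype and bearing a tumor cannot be told apart. No gene was called (0% of 11351, by limma and by voom), with 0 members and 1408 genes (12.4%) under an unadjusted p of 0.05. Members' groups overlapped for 10 of 10, where 7.59% of all genes did not overlap. The log2 changes of members had a median of -0.16, with 1 of 10 above 0, beside 0.08 for all genes. That 1 was Gstp1, at 0.58 (-0.54 to 1.70), with 351 ± 198 RPKM in DKO livers and 194 ± 66 RPKM in wild-type livers. It was 1.23 (adjusted p = 0.206, limma) without DKO liver 4, 0.33 without DKO liver 2, 0.30 without DKO liver 3 and 0.32 within tag L02. The interval lay within a 2-fold change for 5 members.

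Without DKO animal 4, 6 members turned to log2 changes just above 0 in DKO livers against wild-type livers: Gsta2 at 0.02, Gsta3 at 0.06, Gsta4 at 0.17, Gstm1 at 0.32, Gstm2 at 0.01 and Gstm3 at 0.19. The median of the members was then 0.04. Within tag L02, which holds the DKO livers and wild-type livers 1 and 2, 0 genes were called. The 3 comparisons share libraries, so their values are not independent of each other.

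The share of Gstm3 within the mu class separated the tumors from all livers, a pattern noticed in these data and given without a test. Gstm3 made up 15.2%, 16.9%, 14.5% and 28.8% of the summed mu-class RPKM in tumors 1 to 4, against 3.26%, 4.87%, 13.5% and 5.97% in DKO livers and 7.09%, 4.66%, 8.61% and 5.16% in wild-type livers. Each tumor was above each of the 8 livers, with DKO liver 3 the nearest, and within tag L03 the 2 wild-type livers had 8.61% and 5.16%. The ratio of Gstm3 to Gstm1 was 0.196 to 0.569 in tumors, 0.038 to 0.181 in DKO livers and 0.060 to 0.119 in wild-type livers. Its ratio to Gstm6 did not separate the groups, at 2.01 to 4.67 in tumors, 0.502 to 2.91 in DKO livers and 0.501 to 1.06 in wild-type livers. Nor did its share of the summed RPKM of all 10 members, at 5.88% to 16.1% in tumors, 1.07% to 6.39% in DKO livers and 1.70% to 2.76% in wild-type livers, since DKO liver 3 overlapped the tumors in both. Such a ratio does not depend on the scaling of a library, and shows unequal levels without saying which gene differed. The stretch printed above, with 16 differing bases of 60, is a part of the transcripts in which reads of Gstm3 and Gstm1 differ. It was picked for its many differences, and how reads of the shared parts were divided is not known.

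**Figure D5:**
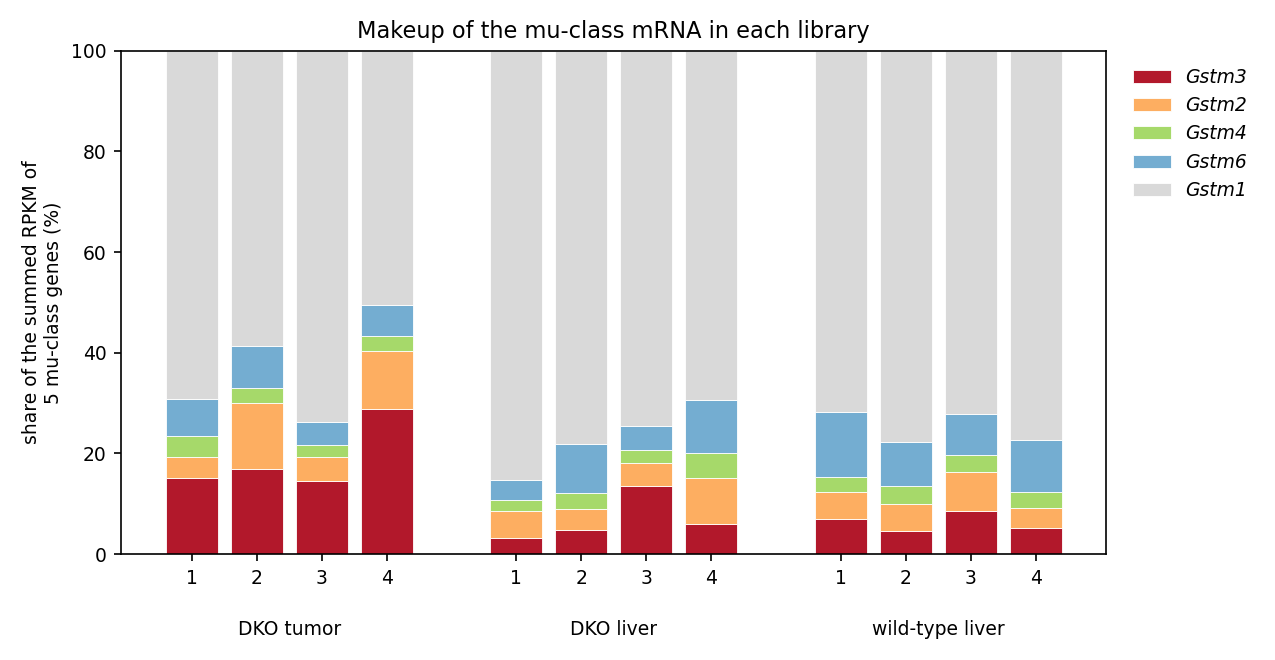
Share of each mu-class gene in the summed RPKM of the 5, in percent, for the 4 libraries of each group. Gstm3 (red) takes 14.5% to 28.8% in tumors, 3.26% to 13.5% in DKO livers and 4.66% to 8.61% in wild-type livers.

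Across the 12 libraries the members' log2 levels were compared by Pearson's r, as a description of libraries that share depth and scaling. It had a median of 0.57 over the 45 pairs, from -0.06 for Gstm2 with Gstp1 to 0.88 for Gsta4 with Gstm1. The 10 pairs within the mu class had a median of 0.71, and 0.46 without animal 4. The median over all 45 pairs was 0.44 without it.

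The genes outside the family whose levels were most like the mean of the 10 members were Cyp2a5, a liver cytochrome P450 (r = 0.90 over 12 libraries), Ufd1l (0.89), Sars (0.89), Alad, an enzyme of heme synthesis (0.88), and Smap1 (0.88). Cyp2a5 had 33.8, 168, 269 and 820 RPKM in tumors, 41.7, 74.3, 241 and 21.9 RPKM in DKO livers and 167, 227, 87.1 and 204 RPKM in wild-type livers, highest in tumor 4 and lowest in DKO liver 4. Among members, Gstm1 and Gstm3 had both of these traits. Without animal 4 the r was 0.77 for Cyp2a5 and 0.70 to 0.80 for the 5 genes. These 5 were picked for the highest r of all tested genes outside the transferases, over only 12 libraries. A high r and shared high and low libraries thus follow in part from the choice.

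Taken 1 member at a time, the most alike gene was Glul for Gstm2, with r = 0.96, and 0.90 without animal 4. Glul, glutamine synthetase, is known in normal liver from the hepatocytes around the central vein. It had 53.2, 942, 167 and 2502 RPKM in tumors, 200, 128, 167 and 110 RPKM in DKO livers and 235, 144, 218 and 179 RPKM in wild-type livers. As with Gstm2, tumors 2 and 4 exceeded every liver and tumor 1 was the lowest library, a likeness that follows in part from the choice by r. For the other members the most alike genes were Dhrs1 for Gsta3 (r = 0.95), Epn2 for Gstm3 (0.95), Ufd1l for Gstm1 (0.94), Txnl4b for Gsta2 (0.92), Muted for Gstm6 (0.90), Tinagl for Gstp1 (0.87), 1110007L15Rik for Gsta4 (0.86), Fvt1 for Gstm4 (0.86) and 2810474O19Rik for Gstt1 (0.85). Without animal 4 the r of these 9 pairs was 0.51 for Fvt1, 0.67 for 1110007L15Rik and 0.81 to 0.95 for the others.

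Of 17 other transferase genes listed, 15 had a row and 12 were tested, and 0 were called in any comparison. In tumors against wild-type livers 5 of these 12 had an unadjusted p under 0.05, all lower in tumors, where 19.2% of all genes had one in either direction, and the median log2 change of the 12 was -0.55. Mgst1, the abundant microsomal transferase, had 1342, 1606, 3258 and 1956 RPKM in tumors against 5062, 3497, 4342 and 4575 RPKM in wild-type livers, with DKO livers between 1549 and 4014 RPKM. Its tumors were all below the wild-type livers, with a log2 change of -1.17 (-1.89 to -0.45, adjusted p = 0.0863). Gstz1, the maleylacetoacetate isomerase of tyrosine breakdown, averaged 332 ± 24 RPKM in tumors and 552 ± 72 RPKM in wild-type livers, also without overlap (log2 change -0.72, adjusted p = 0.0632).

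Gstk1, the kappa-class enzyme of mitochondria and peroxisomes, averaged 108 RPKM in tumors and 205 RPKM in wild-type livers (log2 change -0.92, adjusted p = 0.0640), and its tumors were below all 8 livers. Gsto1, of the omega class, averaged 29.2 RPKM in tumors and 46.9 RPKM in wild-type livers (-0.75, adjusted p = 0.197). Gstt2, a theta-class neighbour of Gstt1, averaged 31.4 RPKM in tumors, 33.0 RPKM in DKO livers and 61.7 RPKM in wild-type livers, with overlap (-0.93 in tumors against wild-type livers, adjusted p = 0.175).

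Gstp2 and Gsta1, the near-identical partners of Gstp1 and Gsta2, had low values. How reads with several matches were handled is not known, so these values do not show how many reads were shared. Gstp2 averaged 6.29 RPKM in tumors, through 21.8 RPKM in tumor 1, against 2.59 RPKM in DKO livers and 1.42 RPKM in wild-type livers, and Gsta1 averaged 1.97, 1.73 and 2.95 RPKM. Gstm5 averaged 12.7, 12.2 and 10.2 RPKM and Gstm7 32.5, 34.3 and 48.6 RPKM, each in tumors, DKO livers and wild-type livers. Gstt3 averaged 40.9, 37.1 and 44.4 RPKM and Gstcd 2.61, 2.65 and 2.30 RPKM in the same groups. Mgst3 averaged 41.9 RPKM in tumors, 46.3 RPKM in DKO livers and 27.5 RPKM in wild-type livers, and its DKO livers were all above its wild-type livers (log2 change 0.76, adjusted p = 0.402). Gsto2 and Mgst2 were under the filter, and Gstt4 was listed at 0 in all libraries.

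Of the genes that make and recycle glutathione, 0 of 10 tested were called in any comparison, with a median log2 change of -0.13 in tumors against wild-type livers. Gclc, the catalytic subunit of glutamate-cysteine ligase, averaged 256 ± 115 RPKM in tumors, 200 ± 53 RPKM in DKO livers and 178 ± 57 RPKM in wild-type livers, and Gclm, its modifier subunit, averaged 184, 172 and 183 RPKM. Among 11 peroxidases, glutaredoxins and glyoxalases tested 0 were called. Gpx1, the main cytosolic glutathione peroxidase, averaged 280 ± 125 RPKM in tumors and 991 ± 380 RPKM in wild-type livers without overlap (-1.84, adjusted p = 0.104), and 697 ± 479 RPKM in DKO livers. Prdx6 averaged 186, 241 and 252 RPKM in tumors, DKO livers and wild-type livers.

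Among 11 genes of conjugate export and the mercapturate steps, 1 was called. Abcc6, a transporter of the same family as the conjugate pumps, fell to 4.14 ± 1.47 RPKM in tumors, against 10.1 ± 2.93 RPKM in wild-type livers (SD, n = 4 each), a log2 change of -1.12 (adjusted p = 0.0356, limma). Abcc2, the canalicular pump, averaged 58.9 RPKM in tumors, 43.5 RPKM in DKO livers and 72.0 RPKM in wild-type livers, and Abcc3 21.9, 38.6 and 43.1 RPKM.

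Of 15 other NRF2 targets, 16 regulators and 8 CAR and PXR targets tested, 0 were called in any comparison. Osgin1 averaged 128 ± 7 RPKM in tumors, 177 ± 61 RPKM in DKO livers and 60.1 ± 14.2 RPKM in wild-type livers, with a log2 change of 1.10 in tumors (adjusted p = 0.0514) and 1.49 in DKO livers (adjusted p = 0.166) against wild-type livers. Ephx1, the microsomal epoxide hydrolase, averaged 177, 209 and 245 RPKM in tumors, DKO livers and wild-type livers. Hnf4a, a hepatocyte transcription factor, averaged 168, 175 and 152 RPKM, and Rxra, the partner of CAR and PXR, 69.4, 93.9 and 87.0 RPKM. Cyp2c29 averaged 213 RPKM in tumors, 303 RPKM in DKO livers and 813 RPKM in wild-type livers (-2.11 in tumors against wild-type livers, adjusted p = 0.0730), and Cyp3a11 averaged 1634, 863 and 1886 RPKM.

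Markers of other cell types differed in level between libraries. The 7 macrophage markers with a row summed to 36.9 to 230 RPKM in tumors, 184 to 507 RPKM in DKO livers and 93.9 to 273 RPKM in wild-type livers, with 0 of 7 called. The 7 cholangiocyte markers with a row summed to 40.0 to 138 RPKM in tumors, 37.0 to 178 RPKM in DKO livers and 31.9 to 49.1 RPKM in wild-type livers. Of the 5 tested, Tspan8 was called in tumors against wild-type livers, at 31.7 ± 14.2 against 6.13 ± 4.03 RPKM (log2 change 2.28, adjusted p = 0.0215). The summed cholangiocyte level was highest in DKO liver 3, 178 RPKM, of which Spp1, osteopontin, gave 154 RPKM. That library was also the highest of the 12 for the stellate, endothelial and lymphocyte sums, and the highest DKO liver for Gstm3. Tumor 4, the highest of the 12 for Gstm3, had the lowest cholangiocyte sum of the tumors, 40.0 RPKM. Stellate markers ran from 51.7 to 221 RPKM in tumors, 85.5 to 307 RPKM in DKO livers and 98.7 to 135 RPKM in wild-type livers, and lymphocyte markers reached at most 19.9 RPKM in any library. Endothelial markers ran from 41.4 to 112, 82.8 to 132 and 53.9 to 82.0 RPKM, and erythroid markers from 63.8 to 238, 85.3 to 145 and 79.9 to 132 RPKM, in tumors, DKO livers and wild-type livers. None of these lists was at 0, and their part in the members' values was not tested.

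Clec4f and Cd5l, of Kupffer cells, averaged 29.4 and 24.0 RPKM in tumors, 108 and 93.5 RPKM in DKO livers and 59.3 and 47.4 RPKM in wild-type livers. Clec4g, of sinusoidal endothelium, and Eng averaged 17.0 and 15.3 RPKM in tumors, 44.6 and 25.0 RPKM in DKO livers and 30.5 and 13.6 RPKM in wild-type livers, and none of these 4 was called. The stellate markers Dcn and Col3a1, matrix genes, averaged 71.8 and 10.3 RPKM in tumors, 131 and 18.4 RPKM in DKO livers and 95.6 and 8.32 RPKM in wild-type livers. Ptprc and Cd3e, of the lymphocyte list, were at most 3.31 RPKM in any library. The globin genes Hbb-b1 and Hba-a1 averaged 77.8 and 26.9 RPKM in tumors, 71.6 and 25.2 RPKM in DKO livers and 63.9 and 21.3 RPKM in wild-type livers. Of the hepatocyte list, with 0 of 10 called, Alb averaged 80945 ± 25162 RPKM in tumors, 53335 ± 32790 RPKM in DKO livers and 46019 ± 9530 RPKM in wild-type livers (SD, n = 4 each). Trf, transferrin, averaged 17856, 13420 and 11634 RPKM in the same groups.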

How the data were processed

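Poly(A) RNA of 12 mouse liver or liver tumor samples was sequenced as SOLiD libraries, per the labels' protocols. BWA and the mouse build mm9 are named in the submitters' processing notes, without version or role. The sources used here do not give the counting tool. The authors deposited, for each library, 21247 transcript rows with a value that behaves as RPKM: multiplied by exon length it gave whole multiples of 1 read for at least 99.991% of rows (within 0.05 read), which set the depth. The headers do not name the unit. The longest row of each of 19012 symbols was used.

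Differences were tested on log2(RPKM + 1), with 1 added to the deposited RPKM before the log2, in limma 3.58.1 (R 4.3.3). The fit held 12 libraries, 1 mean per group, trended and robust variances, and genes of at least 0.5 RPKM in 4 libraries. Tests were two-sided, with Benjamini-Hochberg adjustment over all 11351 genes and a threshold of 0.05. The fit was also run on simulated data with independent noise for each gene and no shift of a whole library. That run does not check it against the differences between libraries seen here. E2f7 and E2f8 were compared by an exact permutation test. Within each group the codes, read here as animals, differ, but the labels do not say whether samples of a group are separate animals. P-values measure the spread between these samples, which may be technical if that reading is wrong.

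The members, lists and tests were chosen with earlier results of these data known. All 10 members are named in every comparison. Of each list the text names up to 4 called genes or, with none, the 2 highest, besides every other transferase gene, the 5 genes most like the mean member profile and the gene most like each member. Codes in the tables' names pair tumors and DKO livers by animal. Deviations of the 4 such pairs correlated at 0.12, 0.35, 0.37 and 0.003. Tumor 1 correlated at 0.15 with DKO liver 4, above its own pair, and tumor 4 at 0.09 with DKO liver 1, above its own pair. For tumors 1 and 4 the correlations thus do not single out the liver of the same code, and the pairing rests on the codes. Promoters are from RefSeq (GRCm38.p6) and transcripts from GENCODE M21. Alternatives covered the log offset, filters, scaling, transcript choice, voom on recovered reads, tags, the replicate block and each library left out. Leaving out animal 4 was chosen after seeing the data.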

Additional observations from a re-analysis of the deposited data

Results flagged for a closer look

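In 4 of the 30 groups of 4 libraries (10 members in 3 groups), the highest library stood apart from the rest by Dixon's criterion. Chance alone meets it in about 5% of groups if values are normally distributed. Here it was applied to RPKM without a log, which spreads high values, and the members' levels were correlated. So 4 of 30 is not to be read as more than chance. Gstm3 had 765.6 RPKM in DKO tumor 4, where the other tumors had 93.4 to 189 RPKM. Gstm4 had 77.9 RPKM in the same tumor, with the other tumors at 25.7 to 33.2 RPKM. Gstm3 had 218.4 RPKM in DKO liver 3, with the other DKO livers at 26.8 to 42.4 RPKM. Gstm2 had 67.3 RPKM in wild-type liver 1, with the other wild-type livers at 43.2 to 46.3 RPKM.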

How the results depend on the processing

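No member was called under any of the 25, 24 and 25 settings tried for tumors against wild-type livers, tumors against DKO livers and DKO livers against wild-type livers. Of 740 log2 changes of members under these settings, 62 turned in sign, all of main values within 0.56 of 0, and none passed the test. With 4 libraries a group, the width of the intervals limits what could be detected.

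In tumors against wild-type livers, the count of all genes called was 216, and it was 1 with no filter, 598 with median-of-ratios scaling, 478 with quantile normalization, 3 with the tag as covariate and 25 within tag L03. It was 16 to 413 with a library left out, and differed over 1.5 times without tumor 1 (37), tumor 2 (20), tumor 3 (413) or wild-type liver 1 (21), 2 (83) or 4 (16). In tumors against DKO livers the count was 1, and it was 2 with no filter, 0 with a filter at 2 RPKM, 24 with quantile normalization, 0 with the tag as covariate and 55 with these 8 libraries alone. With a library left out it was 1 to 363, at 363 without tumor 3, 20 without DKO liver 3, and 3, 2, 31 and 2 without wild-type liver 1, 2, 3 and 4. In DKO livers against wild-type livers the count was 0, and it was 1 with median-of-ratios scaling, 1 with these 8 libraries alone, 3 without animal 4, and 0 to 2 with a library left out (2 without DKO liver 4). The cause of these differences was not tested.

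The replicate block gave 71 genes in tumors against DKO livers, where the numbers are read as the animal, and changed no call of a member. With wild-type livers the samples share only a number, and the block gave 128 genes for tumors and 0 for DKO livers.

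In tumors against wild-type livers, log2 changes that turned in sign were Gsta4 0.011 with median-of-ratios scaling, and Gsta3 0.10, Gsta4 0.22, Gstm6 0.081, Gstt1 0.33 with quantile normalization, and Gsta4 0.18, Gstm6 0.086, Gstt1 0.088 with the tag as covariate, and Gsta4 0.18, Gstm6 0.086, Gstt1 0.088 within tag L03, and Gstm1 -0.10, Gstm4 -0.045 without animal 4. With a library left out, the ranges there were Gsta3 -0.37 to 0.17, Gsta4 -0.22 to 0.12, Gstm6 -0.55 to 0.077, Gstm1 -0.10 to 0.45, Gstm4 -0.045 to 0.48 and Gstt1 -0.23 to 0.060. In tumors against DKO livers, log2 changes that turned in sign were Gsta2 0.068 with median-of-ratios scaling, and Gsta2 0.041 with quantile normalization, and Gsta2 0.33, Gstp1 0.11 with the tag as covariate, and Gsta3 -0.42, Gsta4 -0.26, Gstm1 -0.43, Gstt1 -0.064 without animal 4. With a library left out, the ranges there were Gsta2 -0.61 to 0.49, Gsta3 -0.21 to 0.38, Gstm1 -0.16 to 0.49, Gsta4 -0.19 to 0.39 and Gstt1 -0.067 to 0.17. In DKO livers against wild-type livers, log2 changes that turned in sign were Gstm1 0.18 with quantile normalization, and Gsta2 0.017, Gsta3 0.058, Gsta4 0.17, Gstm1 0.32, Gstm2 0.0089, Gstm3 0.19 without animal 4. With a library left out, the ranges there were Gstm3 -0.80 to 0.19, Gstm2 -0.27 to 0.083, Gsta2 -1.01 to 0.017, Gsta3 -0.39 to 0.058, Gsta4 -0.42 to 0.17 and Gstm1 -0.33 to 0.32.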
